A study of Arabidopsis thaliana with 16 samples.

Results

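The 4 genes of the N-hydroxypipecolic acid pathway were followed across leaves of 4 Arabidopsis thaliana genotypes. They were chosen by locus code for their known function, as the genes ALD1 (AT2G13810), SARD4 (AT5G52810), FMO1 (AT1G19250) and UGT76B1 (AT3G11340), and all 4 are among the 27826 probe sets measured, each with 1 probe set. N-hydroxypipecolic acid is a lysine-derived metabolite that builds up in attacked leaves and primes distant leaves for defence, a state called systemic acquired resistance. ALD1, an aminotransferase, starts its synthesis by removing the amino group of lysine in the plastid, and SARD4, a reductase, then yields pipecolic acid. FMO1, a flavin-dependent monooxygenase, N-hydroxylates pipecolic acid to the active compound. UGT76B1, a glucosyltransferase, attaches glucose to N-hydroxypipecolic acid and to salicylic acid and so lowers the free, active forms of both.

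Leaves came from untreated plants 6 weeks old that were grown on soil in short days of 8.5 h, with 22 °C in the light and 18 °C in the dark. The control was the wild type (WT). In the amiNAA10 line an artificial microRNA lowers NAA10, the catalytic subunit of the N-terminal acetyltransferase NatA, which acetylates many proteins as they leave the ribosome. The other groups were a pair of lines with a T-DNA insertion in HYPK, which encodes a NatA-binding protein: the insertion lies in the first exon in one, called here the exon 1 line, and in the second exon in the other, the exon 2 line. Each genotype was measured on 4 arrays, 16 in all. The labels name neither the promoter that drives the microRNA nor whether arrays of one genotype hold separate plants, pooled plants or repeat preparations. P-values therefore set a difference only against the spread between these samples, and part of that spread may be technical. Expression was given as RMA values in log2 units, where a difference of 1 is a doubling. Each array read whole leaf tissue, so fewer cells that express a gene and less transcript per cell cannot be told apart.

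In the amiNAA10 arrays NAA10 was at 2.89 ± 0.16 (SD, n = 4) against 4.96 ± 0.10 (SD, n = 4) in WT. In WT, HYPK was at 5.66 ± 0.08 (SD, n = 4), and the exon 1 line had 4.72 ± 0.14 (SD, n = 4). In the arrays labelled as the exon 2 line it was at 5.40 ± 0.27 (SD, n = 4), a difference from WT that limma did not call, so HYPK does not check that label. Replicate 4 of the exon 2 line stood apart on the first principal component, at -44.3, where the other arrays of that line lay between -1.87 and 15.5. Some arrays high for the pathway genes lay apart in the other lines too. Exon 1 replicates 2 and 3 were at -32.5 and -27.2 against -0.01 and -5.34. In amiNAA10, replicate 2 was at -57.4 against -34.9 to -30.9. Replicate 3 of amiNAA10, also high for ALD1, FMO1 and UGT76B1, did not lie apart, at -34.9. Differences of the 4 genes are given with and without exon 2 replicate 4, and list counts are given without it and without amiNAA10 replicate 2. The 4 mesophyll markers fixed for the tissue averaged 9.93 to 10.7 per array over all genotypes. The 3 flower markers averaged 1.19 to 1.71, and the table holds no detection call.

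ALD1 was low on every WT array, at 2.82, 2.02, 2.92 and 2.16 in replicates 1 to 4. In amiNAA10 it was at 4.91, 8.23, 6.09 and 4.21 in the same order, all above the highest WT array. The exon 1 line had values of 4.44, 8.18, 7.56 and 3.38, again all above WT, but with replicates 2 and 3 far above the others. In the exon 2 line they were 2.91, 3.43, 3.43 and 8.29. Only replicate 4 was high there, and replicate 1 lay just under the highest WT array.

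SARD4 moved over a narrower range. Its WT values were 2.61, 2.0, 2.08 and 2.02, with replicate 1 the highest. The amiNAA10 arrays were at 3.51, 3.89, 3.16 and 2.38, of which replicates 1 to 3 lay above all WT arrays and replicate 4 below WT replicate 1. SARD4 in the exon 1 line was at 2.69, 3.72, 3.90 and 2.34, with the same overlap at replicate 4. In the exon 2 line it was at 2.79, 2.94, 2.70 and 4.30, and all 4 arrays lay above WT, although the lowest did so by less than 0.10.

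FMO1 was at 1.30, 1.57, 1.67 and 2.05 in WT, the lowest levels of the gene apart from 1 array of the exon 1 line. In amiNAA10 it was at 2.23, 7.24, 4.37 and 2.34. Replicates 2 and 3 were high, while replicates 1 and 4 lay close above WT. The exon 1 line had 2.72, 5.08, 4.77 and 1.71, with replicate 4 inside the WT range. In the exon 2 line FMO1 was at 2.08, 2.26, 2.31 and 5.90, so replicates 1 to 3 stood just above the highest WT array and replicate 4 far above it.

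UGT76B1 was at 1.74, 1.69, 2.0 and 1.54 in WT. The amiNAA10 values were 3.02, 7.51, 5.81 and 2.67, all above WT. The exon 1 line had 2.22, 6.14, 6.30 and 2.48, likewise above WT on every array. The exon 2 line had 2.04, 1.56, 2.04 and 6.16, of which replicate 2 lay inside the WT range, replicates 1 and 3 by less than 0.10 above it, and replicate 4 far above it.

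**Figure D1:**
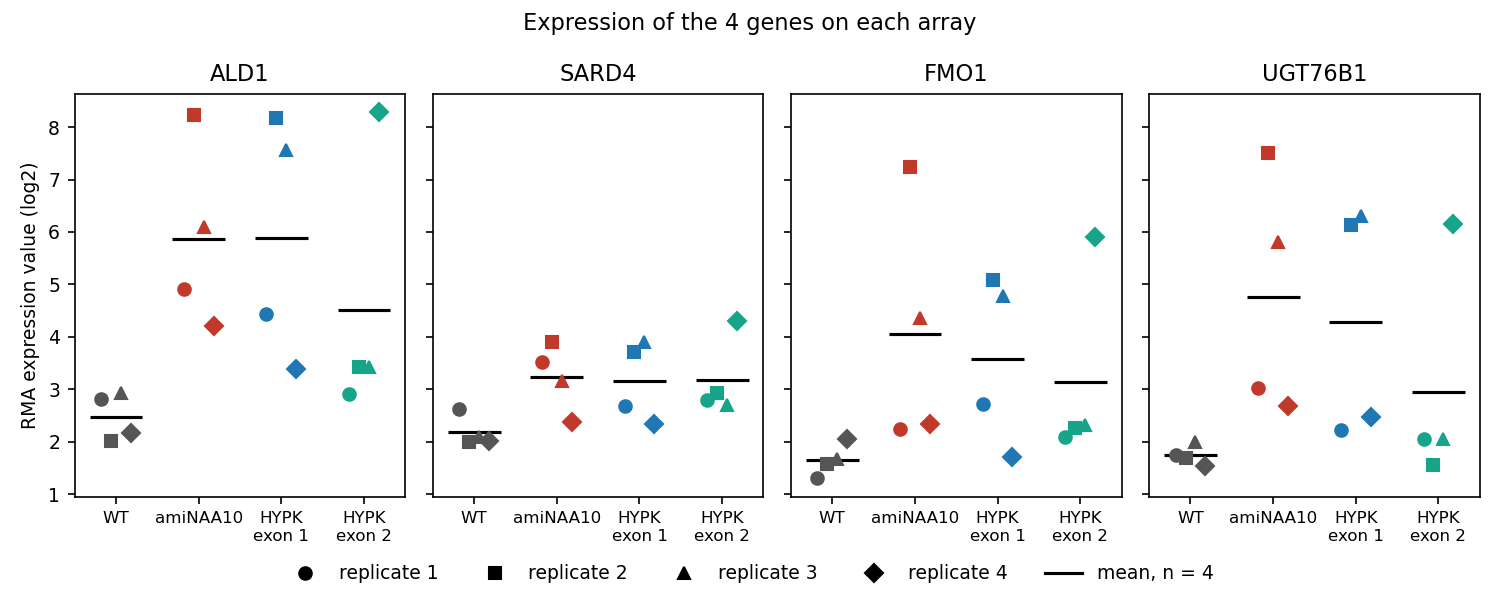
RMA expression value (log2, vertical axis) of ALD1, SARD4, FMO1 and UGT76B1 on each of the 16 arrays, by genotype (horizontal axis); symbols give the replicate number and the bar is the mean of 4 arrays. WT values lie close together, whereas the arrays of each line spread widely, ALD1 in the exon 2 line from 2.91 to 8.29.

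The genes spread widely between arrays of one line. In amiNAA10 the highest array of FMO1 was 32.3-fold above the lowest, that of UGT76B1 28.6-fold and that of ALD1 16.3-fold. The same ratios in the exon 1 line were 10.4 for FMO1, 16.9 for UGT76B1 and 27.7 for ALD1. In the exon 2 line they were 14.1 for FMO1, 24.3 for UGT76B1 and 41.6 for ALD1. WT arrays differed by at most 1.88-fold for any of the 4 genes. SARD4 spanned 2.86-fold in amiNAA10, 2.93-fold in the exon 1 line and 3.02-fold in the exon 2 line. The lowest array of FMO1 in the exon 1 line (1.71) and of UGT76B1 in the exon 2 line (1.56) lay under 1.83, the level that bounds the dimmest 30% of probe sets, so the size of those ratios is uncertain.

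Pooled over the 4 genotypes, the SD between arrays of one genotype was 1.95 for ALD1, 1.94 for UGT76B1 and 1.71 for FMO1 on the log2 scale. Over all 27826 probe sets the median of this SD was 0.22. Ranked from the largest SD, ALD1 was at place 2, UGT76B1 at place 3 and FMO1 at place 8, whereas SARD4, with an SD of 0.64, was at place 432. Place 1 was held by ARD3 (SD 1.99), an acireductone dioxygenase gene of methionine recycling. The ranking was made after the values were seen, and it describes these arrays. In WT alone the SD was 0.46 for ALD1, 0.29 for SARD4, 0.31 for FMO1 and 0.19 for UGT76B1. The WT means of FMO1 (1.65) and UGT76B1 (1.74) also lay under that bound. With no detection call, the size of spreads and differences that rest on such dim values is uncertain.

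**Figure D2:**
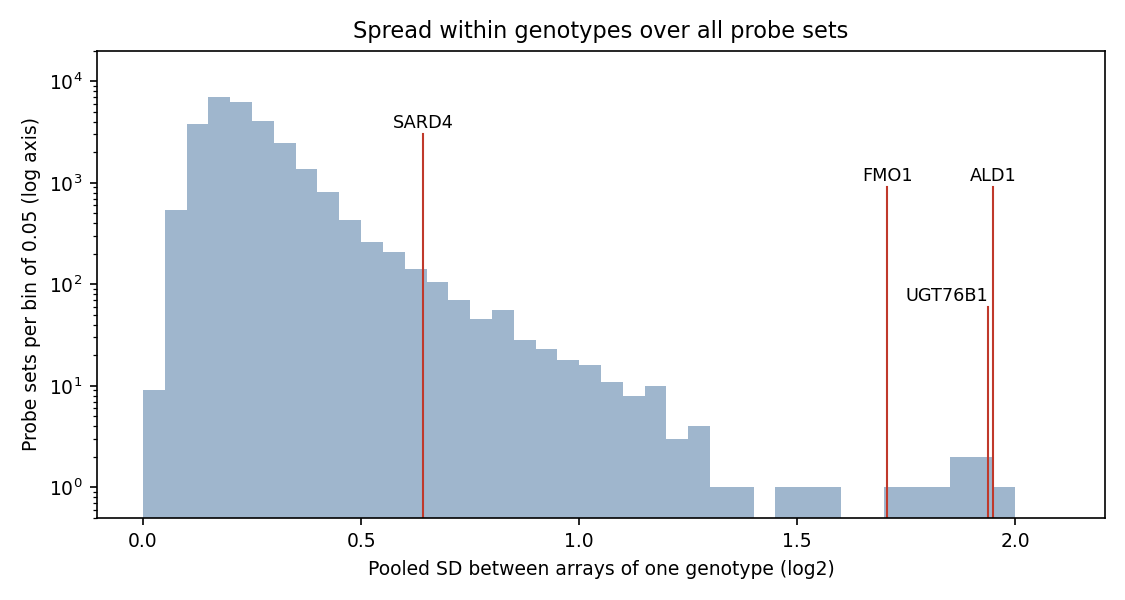
Number of probe sets (vertical axis, log scale) by the pooled SD between arrays of one genotype (horizontal axis, log2), over 27826 probe sets; red lines mark the 4 genes. ALD1 (1.95), UGT76B1 (1.94) and FMO1 (1.71) stand at the right end, and SARD4 (0.64) lies inside the upper tail.

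The same arrays were high for each gene. Ranked over all 16 arrays, the 5 highest were the same for ALD1, FMO1 and UGT76B1: replicates 2 and 3 of amiNAA10, replicates 2 and 3 of the exon 1 line and replicate 4 of the exon 2 line. For SARD4, 4 of the 5 highest were among these. Replicate 1 of amiNAA10 took the fifth place in SARD4, and replicate 3 of amiNAA10 the next. The widest gap between neighbouring arrays in the order was 2.78 for UGT76B1, between 5.81 and 3.02, and 1.65 for FMO1, between 4.37 and 2.72. Both gaps lay below these 5 arrays. For ALD1 the widest gap was 1.47, between 7.56 and 6.09, below the 4 highest arrays, and for SARD4 it was 0.40, below the highest array alone. The order within them differed by gene: ALD1 and SARD4 were highest on replicate 4 of the exon 2 line, FMO1 and UGT76B1 on replicate 2 of amiNAA10. Between ALD1 values of 8.23 and 8.18 on replicate 2 of amiNAA10 and replicate 2 of the exon 1 line, FMO1 differed more, at 7.24 and 5.08.

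**Figure D3:**
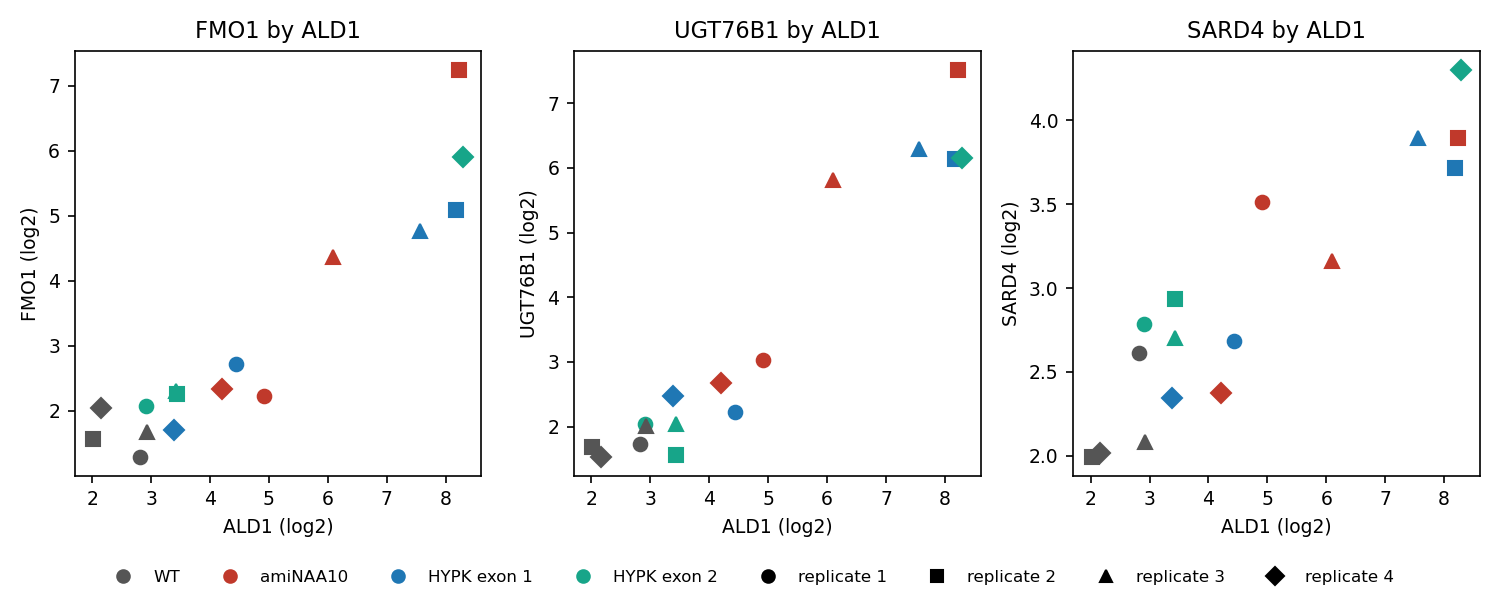
Log2 value of FMO1, UGT76B1 and SARD4 (vertical axes) against that of ALD1 (horizontal axes) on the 16 arrays, with colour for genotype and symbol for replicate number. The 5 arrays with ALD1 at 6.09 or above hold every FMO1 value from 4.37 upwards and every UGT76B1 value from 5.81 upwards, while SARD4 is also at 3.51 on replicate 1 of amiNAA10.

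As a measure of likeness, Pearson's r was taken over the 16 arrays and is given as a description. These arrays share genotypes and 1 normalization, and the 5 high arrays carry much of each r. Between members r was 0.96 for ALD1 with UGT76B1, 0.96 for FMO1 with UGT76B1, 0.94 for ALD1 with FMO1 and 0.92 for ALD1 with SARD4. For SARD4 it was 0.85 with FMO1 and 0.85 with UGT76B1. Of all other probe sets, UGT76B1 was at place 3 in likeness to ALD1 and ALD1 at place 3 in likeness to UGT76B1. SARD4 stood farther off, at place 48 for ALD1 and at place 152 for FMO1. After each genotype's mean was subtracted, so that only differences between arrays of one genotype were left, r was 0.96 for ALD1 with UGT76B1, 0.94 for ALD1 with FMO1 and 0.92 for ALD1 with SARD4.

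Beyond the members, the genes with a symbol that were most like ALD1 were PBS3 (r = 0.96), whose enzyme joins glutamate to isochorismate in salicylic acid synthesis, EBS1 (0.96), a glucosyltransferase of glycoprotein folding control in the endoplasmic reticulum, and the glutaredoxin gene GRXS13 (0.96). Those most like SARD4 were PPC1 (0.94), a phosphoenolpyruvate carboxylase, EBS1 (0.93) and EBS3 (0.93). For FMO1 they were PXMT1 (0.95), the nitrilase gene NIT4 (0.94) and the chaperone gene Hsp70-2 (0.94). For UGT76B1 they were ARD3 (0.95), the nudix hydrolase gene NUDT5 (0.95) and the transporter gene ABCG40 (0.94). Without the 2 arrays farthest from the member's median, r of these 12 pairs lay between 0.85 for FMO1 with Hsp70-2 and 0.95 for UGT76B1 with ARD3. That last pair had the lowest Spearman rho of the 12, at 0.71, where the others lay between 0.88 and 0.95.

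The first comparison asks whether less NAA10 transcript goes with other levels of the pathway genes. ALD1 was the only one of the 4 genes called by limma in amiNAA10 against WT at an adjusted p under 0.05. It was 10.4-fold higher (difference 3.38, SE 1.17, adjusted p = 0.0373), and all 4 amiNAA10 arrays lay above all 4 WT arrays. UGT76B1 differed by 3.01 (SE 1.17, adjusted p = 0.0611), FMO1 by 2.40 (SE 1.03, adjusted p = 0.0910) and SARD4 by 1.06 (SE 0.39, adjusted p = 0.0511), all towards higher values. The median over the 4 genes was 2.71, against -0.02 over all probe sets. Of all probe sets, 30.7% were called in this comparison and 15.4% were called higher, so 1 call among 4 genes is near the background. By size of difference ALD1 was at place 62 and UGT76B1 at place 95 of 27826, but by p ALD1 was at place 7891.

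The groups did not overlap for ALD1, FMO1 and UGT76B1, a separation upwards that 15.4% of all probe sets showed too. Two-sided exact permutation tests of these 3 genes gave 0.0286 each, the smallest p that 4 arrays against 4 can give, and 0.0571 for SARD4; 24 such tests were made over genes and comparisons, and these values are not adjusted. The call for ALD1 ended without amiNAA10 replicate 2 (difference 2.59, adjusted p = 0.133), without amiNAA10 replicate 3 (3.30, 0.0748), and without WT replicate 1 (0.0591), 2 (0.0796), 3 (0.0572) or 4 (0.0741). It also ended with the intensity trend and robust options of limma on (adjusted p = 0.0807). Other calls appeared when arrays were left out. FMO1 was called without amiNAA10 replicate 1 (3.0, adjusted p = 0.0496), and UGT76B1 without amiNAA10 replicate 1 (3.59, 0.0429), amiNAA10 replicate 4 (3.71, 0.0315) or exon 2 replicate 4 (3.01, 0.0295). SARD4 was called without amiNAA10 replicate 4 (1.34, adjusted p = 0.0177), exon 2 replicate 4 (0.0220), exon 1 replicate 4 (0.0403), exon 1 replicate 3 (0.0442) or WT replicate 1 (1.20, 0.0476). Without amiNAA10 replicate 2, where FMO1 and UGT76B1 peaked, their differences were 1.33 (adjusted p = 0.323) and 2.09 (adjusted p = 0.212).

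The HYPK lines were then set against the same WT arrays. In the mean of both lines SARD4 was called higher, by 0.99 (SE 0.34, adjusted p = 0.0452), or 1.99-fold. ALD1 differed by 2.72 (SE 1.02, adjusted p = 0.0642), FMO1 by 1.71 (SE 0.89, adjusted p = 0.190) and UGT76B1 by 1.88 (SE 1.01, adjusted p = 0.206). Thus 1 of 4 genes was called, where 22.7% of all probe sets were called and 11.2% were called higher. For each gene, 7 of the 8 HYPK arrays lay above all WT arrays, so the groups overlapped for all 4; 6.52% of probe sets separated upwards without overlap. Exact permutation tests gave 0.00808 for ALD1, SARD4 and FMO1 and 0.0323 for UGT76B1, where 8 arrays against 4 can reach 0.00404. These values are not adjusted, and the test takes the arrays of both lines as 1 group of 8. It was not run over all probe sets, nor was the share with 7 of 8 arrays above WT counted. The small values therefore have no background and are no result about these genes.

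Leaving out single arrays changed these calls. For SARD4 the call ended without exon 2 replicate 4 (0.81, adjusted p = 0.0660), exon 1 replicate 2 (0.90, 0.0804) or exon 1 replicate 3 (0.87, 0.0800). It also ended without WT replicate 2 (0.109), 3 (0.105) or 4 (0.101), and without amiNAA10 replicate 1 (0.0536) or 3 (0.0550), which enter only through the shared spread. ALD1 was called without exon 1 replicate 4 (3.14, adjusted p = 0.0301) or exon 2 replicate 1 (2.99, 0.0471). Without exon 2 replicate 4 the difference from WT was 2.1 for ALD1 (adjusted p = 0.0851), 1.25 for FMO1 (0.306) and 1.34 for UGT76B1 (0.330).

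In the exon 1 line alone limma called 0 of the 4 genes, against 19.6% of all probe sets (9.69% called higher). At an unadjusted p under 0.05 there were 3, but the last of them by p, UGT76B1, was at place 8562 of 27826. At least that many probe sets passed the same threshold, so the 3 are no result about these genes. The trend and robust options also called 0. ALD1 was at the edge of the threshold (3.41, SE 1.17, adjusted p = 0.0508), and UGT76B1 (2.54, SE 1.17, adjusted p = 0.144), FMO1 (1.92, SE 1.03, adjusted p = 0.215) and SARD4 (0.98, SE 0.39, adjusted p = 0.0917) were farther from it. Exact permutation gave 0.0286 for ALD1 and UGT76B1, the 2 genes whose groups did not overlap; upward separation was found in 11.3% of all probe sets. ALD1 was called without exon 1 replicate 1 (3.90, adjusted p = 0.0425) or 4 (4.25, 0.0217), without exon 2 replicate 4 (0.0142) and without amiNAA10 replicate 2 (0.0408). SARD4 was called without exon 1 replicate 4 (1.25, adjusted p = 0.0410) or exon 2 replicate 4 (0.0447).

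In the exon 2 line limma called 0 of 4 genes, against 13.8% of all probe sets (7.03% called higher). Only SARD4 passed an unadjusted p of 0.05, at place 5682 of 27826 by p, and the trend and robust options again called 0. The differences were 2.04 for ALD1 (SE 1.17, adjusted p = 0.278), 1.0 for SARD4 (SE 0.39, 0.103), 1.49 for FMO1 (SE 1.03, 0.378) and 1.21 for UGT76B1 (SE 1.17, 0.553). All 4 arrays lay above WT for SARD4 and FMO1, as they did in 8.92% of all probe sets, and exact permutation gave 0.0286 for both. Without replicate 4 they were 0.78 for ALD1, 0.63 for SARD4, 0.57 for FMO1 and 0.14 for UGT76B1, with adjusted p-values of 0.711, 0.325, 0.789 and 0.963. The number of all probe sets called fell from 3852 to 2097 without that array.

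**Figure D4:**
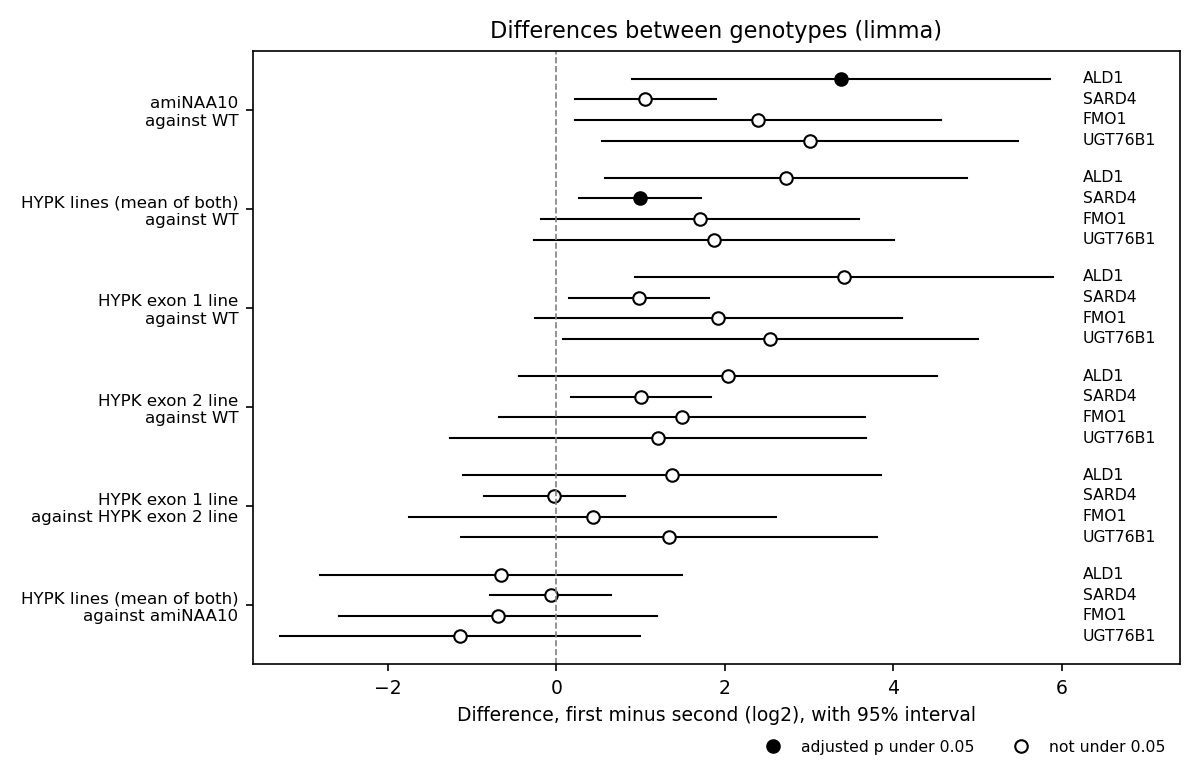
Difference between genotypes (log2, first minus second, horizontal axis) for each of the 4 genes in each of 6 comparisons (vertical axis), with the 95% interval from limma; filled points have an adjusted p under 0.05. The 2 filled points are ALD1 in amiNAA10 and SARD4 in the mean of both HYPK lines.

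No difference between the mutant lines was called for the 4 genes. Between the exon 1 and the exon 2 line limma called 0 of 4, against 0.00719% of all probe sets, and 0 passed an unadjusted p of 0.05. ALD1 differed by 1.37, with a 95% interval from -1.11 to 3.86, and UGT76B1 by 1.33 (-1.13 to 3.80). FMO1 differed by 0.43 (-1.74 to 2.61) and SARD4 by -0.02 (-0.85 to 0.81). Between the mean of both HYPK lines and amiNAA10 the counts were 0 of 4 as well, adjusted and unadjusted. By adjusted p, 10.2% of all probe sets were called there. ALD1 differed there by -0.66 (-2.81 to 1.49), SARD4 by -0.07 (-0.79 to 0.66), FMO1 by -0.69 (-2.57 to 1.19) and UGT76B1 by -1.14 (-3.27 to 1.0). The trend and robust options called 0 of 4 in both comparisons. Without exon 2 replicate 4, the exon 1 line exceeded the exon 2 line by 2.63 in ALD1, 2.40 in UGT76B1, 1.35 in FMO1 and 0.35 in SARD4, with the lowest adjusted p at 0.453 for ALD1. Without the same array the HYPK lines differed from amiNAA10 by -1.29 in ALD1, -0.25 in SARD4, -1.15 in FMO1 and -1.67 in UGT76B1, with the lowest adjusted p at 0.256 for UGT76B1. With all arrays, the intervals of ALD1, FMO1 and UGT76B1 include 0, and their farther ends allow differences of several fold. The sign of the HYPK to amiNAA10 difference turned for ALD1 (0.13) and FMO1 (0.38) without amiNAA10 replicate 2.

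Genes around the pathway were counted by lists of loci, with a gene called at an adjusted p under 0.05 over all probe sets. Lysine, the substrate of ALD1, is made from aspartate in the plastid. Of 14 measured genes of lysine supply, 7 fell and 0 rose in amiNAA10 (median -0.33), and 7 fell and 0 rose in the HYPK lines (median -0.49). AGD2, a diaminopimelate aminotransferase and the closest named relative of ALD1 in the list, was at 6.95 ± 0.21 (SD, n = 4) in WT. In amiNAA10 it fell by 0.54 (SE 0.12, adjusted p = 0.00186). In the HYPK lines it fell by 0.67 (SE 0.10, adjusted p = 0.000251). On all 12 mutant arrays AGD2 lay below all WT arrays, where ALD1 was higher in the mean. The share of all probe sets separated downwards in this way is not given here. The aspartate kinase gene AK3 fell by 1.46 in amiNAA10 (SE 0.26, adjusted p = 0.000449). The HYPK lines differed from WT by -0.51 in AK3 (adjusted p = 0.118) and from amiNAA10 by 0.95 (adjusted p = 0.0134). The bifunctional aspartate kinase-homoserine dehydrogenase genes AK-HSDH I and AK-HSDH II fell in both comparisons, by 0.81 and 0.80 in amiNAA10 and by 0.65 and 0.48 in the HYPK lines. CRR1, which is counted here for its likeness to dihydrodipicolinate reductase but is known for chlororespiratory reduction, fell by 1.32 and by 1.21.

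LKR/SDH, which starts the breakdown of lysine, and LHT1, a lysine and histidine transporter, rose in both comparisons. LHT1 rose by 2.75 in amiNAA10 (SE 0.37, adjusted p = 4.16e-05) and by 2.28 in the HYPK lines (SE 0.32, adjusted p = 0.000143), with every mutant array above every WT array. Such upward separation was found in 15.4% of all probe sets in amiNAA10 and in 6.52% in the HYPK lines. LKR/SDH rose by 2.60 (SE 0.61, adjusted p = 0.00363) in the first and by 1.75 (SE 0.53, adjusted p = 0.0242) in the second. The order of its arrays within a line differed from that of ALD1 in amiNAA10 and the exon 1 line. In the exon 1 line LKR/SDH was at 6.92, 5.81, 3.41 and 5.90, lowest on replicate 3, where ALD1 was at 7.56. In amiNAA10 it was lowest on replicate 2, at 5.13. It was at 4.45, 4.52, 6.18 and 6.47 in the exon 2 line, highest on replicate 4 as ALD1 was. With the genotype means subtracted, r with ALD1 was 0.87 for LHT1 and -0.16 for LKR/SDH.

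Most of the listed regulators of the synthesis genes were called higher. SARD1 and CBP60g are transcription factors that bind promoters of ALD1, FMO1, SARD4 and of salicylic acid genes. SARD1 was at 5.04, 4.05, 4.43 and 5.15 in WT and between 6.64 and 8.67 on the 12 mutant arrays. It rose by 3.15 in amiNAA10 (SE 0.43, adjusted p = 5.01e-05) and by 2.93 in the HYPK lines (SE 0.37, adjusted p = 6.29e-05). CBP60g rose by 1.43 (SE 0.25, adjusted p = 0.000387) in amiNAA10 and by 1.0 (SE 0.22, adjusted p = 0.00333). On the 3 exon 2 arrays where FMO1 was between 2.08 and 2.31, SARD1 was at 6.98, 7.43 and 7.08. Of 15 regulators 11 rose in amiNAA10 (median 0.91) and 10 in the HYPK lines (median 0.72), and 0 fell in either. Among them were EDS1, a hub of immune receptor signalling (1.76 and 1.47), MPK3, a mitogen-activated protein kinase (0.95 and 0.72), and CAMTA3, a calmodulin-binding factor that represses defence genes (0.91 and 0.60). CBP60a, a relative of CBP60g that restrains defence, rose by 0.79 and by 0.72.

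Salicylic acid is made through isochorismate, in parallel with N-hydroxypipecolic acid. Of 5 genes of its synthesis 3 rose and 1 fell in amiNAA10, and the same numbers did in the HYPK lines. ICS1, the main isochorismate synthase gene of defence, rose by 2.1 (SE 0.44, adjusted p = 0.00170) in amiNAA10 and by 1.90 (SE 0.39, adjusted p = 0.00215), and its paralogue ICS2 fell by 1.27 and by 1.16. EDS5, which exports isochorismate from the plastid, rose by 2.60 and by 1.87, and PBS3 by 2.01 and by 1.91. ICS1, EDS5 and PBS3 lay above all WT arrays on all 12 mutant arrays. Of all probe sets, 15.4% separated upwards in amiNAA10 and 6.52% in the HYPK lines, and the share on all 12 arrays is not given here. ICS1 and EDS5 were highest on the same 5 arrays as ALD1. PBS3 shared 4 of these 5. It was at 4.94, 7.16, 5.39 and 5.54 in amiNAA10, where replicate 4 exceeded replicate 3. PBS3 was at 5.05, 7.23, 6.87 and 4.68 in the exon 1 line and at 4.71, 4.89, 4.55 and 7.29 in the exon 2 line. With the genotype means subtracted, r with ALD1 was 0.96 for PBS3, 0.93 for ICS1, 0.89 for EDS5, 0.83 for SARD1 and 0.84 for CBP60g. Other genes of the same lists lay lower, with 0.70 for EPS1, -0.12 for ICS2 and -0.35 for CBP60a. Over the 15 regulators r ranged from -0.35 to 0.87, with a median of 0.64. Over all probe sets the median of r was -0.04, and 1.94% were above 0.80. The SD between arrays of one genotype was smaller than for ALD1 in PBS3 (1.04), ICS1 (0.73), SARD1 (0.70) and CBP60g (0.39).

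Of 6 receptors and factors of the response, 4 rose in both comparisons: NPR1, a salicylic acid receptor and co-activator (1.18 and 1.10), the receptors NPR3 (1.18 and 1.41) and NPR4 (1.26 and 1.30), and TGA5, a bZIP factor (0.84 and 0.89). Of 9 genes of other signals of systemic acquired resistance, 4 rose and 0 fell in amiNAA10, and 2 rose and 1 fell in the HYPK lines. The locus AT5G03350 rose by 1.89 and by 2.59. AZI1 and EARLI1, of the lipid transfer protein family, rose in amiNAA10 (1.88 and 1.48), while the HYPK lines differed from WT by 0.05 in AZI1 and by -0.06 in EARLI1. The HYPK lines lay below amiNAA10 in AZI1 (-1.83, adjusted p = 0.000507) and in EARLI1 (-1.54, adjusted p = 0.00754).

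Relatives of UGT76B1 and FMO1 were counted in the same way. Of 13 UGT76 relatives and salicylic acid glucosyltransferases, 1 rose and 1 fell in amiNAA10 (median 0.09) and 2 rose in the HYPK lines (median 0.02). UGT74F2, which glucosylates salicylic acid, rose by 1.34 (SE 0.22, adjusted p = 0.000241) in amiNAA10 and by 1.21 (SE 0.19, adjusted p = 0.000370). UGT76C2, which glucosylates cytokinins, fell by 1.01 in amiNAA10. Of 5 flavin monooxygenase relatives, which oxidise sulphur in glucosinolates, 3 fell and 0 rose in either comparison. FMOGS-OX1 fell by 2.06 and by 0.89, FMOGS-OX3 by 1.48 and by 0.87 and FMOGS-OX2 by 0.85 and by 0.57. Both comparisons share the WT arrays, and each count stands against 30.7% of all probe sets called in amiNAA10 (15.4% higher, 15.4% lower) and 22.7% in the HYPK lines (11.2% higher, 11.5% lower).

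The counts were repeated without single arrays, an alternative chosen after the data were seen. Without exon 2 replicate 4, lysine supply had 5 falls in place of 7 in the HYPK lines, and the 1 fall among the other resistance signals was lost. The share of all probe sets called in that comparison fell from 22.7% to 20%. The counts of the other neighbouring lists and of the marker lists were the same, and of 100 listed genes 4 lost their call, SARD4 among them. SARD1 then differed from WT by 2.75 (adjusted p = 5.79e-05), ICS1 by 1.67 (adjusted p = 0.00157), LHT1 by 2.09 (adjusted p = 6.88e-05) and LKR/SDH by 1.57 (adjusted p = 0.0433). Without amiNAA10 replicate 2, 8 listed genes lost their call and 1 gained it in amiNAA10, while the share of all probe sets called fell from 30.7% to 25.1%. PBS3 was no longer called (1.54, adjusted p = 0.0860), nor was AT5G03350 (1.79, adjusted p = 0.0593). Lysine supply then had 5 falls, the regulators 9 rises, salicylic acid synthesis 2 rises, the other resistance signals 3 rises, the UGT76 list 2 falls and the mesophyll markers 2 falls.

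**Figure D5:**
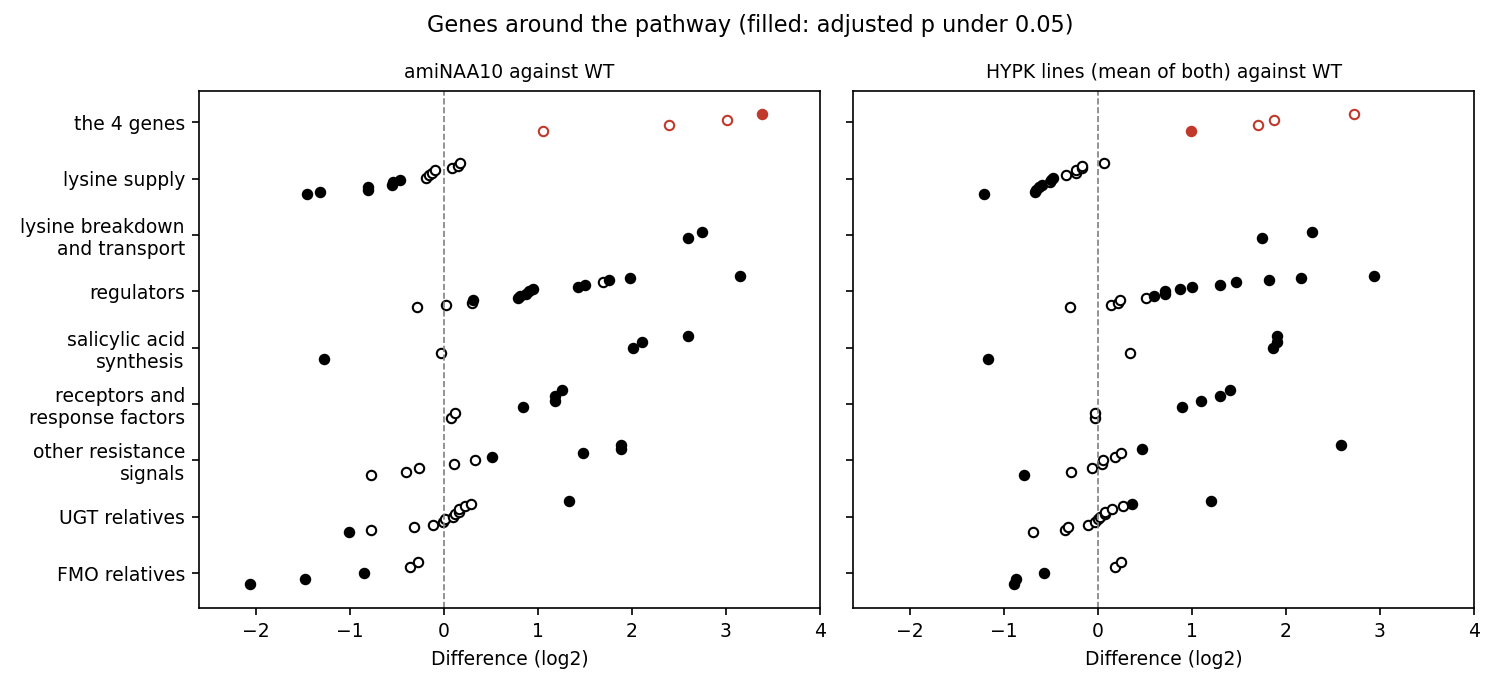
Difference from WT (log2, horizontal axis) of each gene of each list (vertical axis) in amiNAA10 (left) and in the mean of both HYPK lines (right); filled points have an adjusted p under 0.05 and the 4 pathway genes are in red. Genes of lysine supply called in either panel lie left of 0 and called regulators lie right of it, from 0.31 to 3.15 in amiNAA10.

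Markers of other states were read on the same arrays. Of 4 genes of handling and rapid stress, 2 rose in amiNAA10 and 1 in the HYPK lines, and their mean per array ranged from 5.91 to 6.56 in WT, 6.66 to 7.89 in amiNAA10, 6.44 to 7.37 in the exon 1 line and 6.21 to 7.63 in the exon 2 line. With the genotype means subtracted, r with ALD1 was 0.72 for TCH3, 0.69 for WRKY40, 0.45 for ZAT12 and -0.10 for TCH4. Of 3 senescence genes 2 rose in each comparison, with list means from 2.93 to 3.69 in WT, 5.13 to 5.61 in amiNAA10, 4.29 to 5.41 in the exon 1 line and 3.94 to 5.43 in the exon 2 line. SAG13 and SEN1 rose, whereas SAG12 differed from WT by 0.25 in amiNAA10 and by 0.06 in the HYPK lines, neither called. Of 4 mesophyll markers 3 fell in amiNAA10 and 1 in the HYPK lines. After the genotype means were subtracted, r with ALD1 was -0.86 for CA1 and -0.78 for LHCB2.1, but -0.06 for RBCS1A and 0.14 for RCA. Their list means lay between 10.5 and 10.7 in WT and between 9.93 and 10.2 in amiNAA10. Of 4 root markers 1 rose in amiNAA10, where the list means were 1.48 to 2.42 against 1.44 to 1.61 in WT, and 0 in the HYPK lines. The root marker that rose was PYK10 (1.86), while EXPA7, RHS19 and PRP3 differed from WT by 0.07, 0.04 and 0.05 in amiNAA10. All 2 guard cell markers fell in each comparison, with list means of 6.31 to 6.76 in WT, 5.64 to 5.89 in amiNAA10, 5.67 to 5.84 in the exon 1 line and 5.76 to 6.04 in the exon 2 line. Of 2 phloem markers 2 fell in amiNAA10 and 1 in the HYPK lines, with list means of 6.81 to 6.96 in WT, 5.80 to 6.01 in amiNAA10 and 6.30 to 6.66 in the HYPK lines. Of 3 epidermis markers 1 rose in amiNAA10, where the list means were 6.11 to 7.14 against 5.61 to 5.68 in WT, and 0 in the HYPK lines. The epidermis marker that rose was PDF1 (3.39), while ATML1 and KCS6 differed from WT by -0.17 and -0.02 in amiNAA10. Among the 3 flower markers, 1 fell in each comparison. The part of these changes in the levels of the pathway genes was not tested.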

How the data were processed

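The authors deposited a table of log2 values, 1 for each probe set on each array, made with RMA per the submitters' processing notes. RMA corrects background, gives all arrays 1 distribution by quantile normalization and summarises probes. Sorted columns of the deposited log2 values differed by at most 0.0019, so a shift of all transcripts in 1 genotype could not be seen. The sources used here give no software version, array design or probe annotation. Arrays have no read depth, and 4 arrays per genotype limit the precision. Loci were named from RefSeq (assembly TAIR10.1), whose table matched 27241 of 27826 probe sets; loci for which it holds neither a symbol nor a synonym with the listed name are named by code, except SARD4, NAA10 and HYPK.

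A linear model with 4 genotype means was fitted to the 16 arrays together (limma 3.58.1, R 4.3.3; lmFit and eBayes, trend and robust off, no filter). The 6 contrasts were two-sided, with Benjamini-Hochberg adjustment over 27826 probe sets and a threshold of 0.05. Exact permutation tests used scipy 1.17.1. The members, lists and tests were chosen with earlier results of these data known. Of 103 list genes, 3 were left out because RefSeq gives their listed name to a different locus. Named genes were the 4 members, up to 4 genes per list with the smallest adjusted p in amiNAA10 or the HYPK lines, AGD2, LKR/SDH, SARD1, CBP60g, ICS1, NAA10 and HYPK, and per member the 3 genes with a symbol most like it. ARD3 by its spread and the single marker genes were chosen after their values were seen. Alternatives were limma's trend and robust options, a replicate block, leaving out the dimmest 30% of probe sets, fits of only the genotypes compared, array weights, centring on the probe sets brighter than the median, and leaving out each array. The procedure was tested on simulated data in which randomly drawn probe sets were shifted by a fixed amount on all amiNAA10 arrays. That test says nothing about genes that are high on only some arrays of a line. Replicate numbers are shared between genotypes, and the labels do not say whether they pair the samples. Of 24 same-numbered pairs of arrays 5 deviated together with r over 0.1 (range -0.29 to 0.30). Differently numbered pairs were not compared, so these values do not settle whether the samples are paired.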

Additional observations from a re-analysis of the deposited data

Results flagged for a closer look

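In each genotype the highest and lowest of 4 arrays were checked for standing apart from the others by Dixon's ratio at its 95% critical value, for 14 named genes, or 56 groups. Chance flags about 1 in 20 independent groups, and 11 flags were found. Many of these genes vary together between arrays, so the 56 groups are not independent and the number of flags is no test. Of the flags, 6 fell on the same array, replicate 4 of the exon 2 line. It was high for ALD1 (8.29), SARD4 (4.30), FMO1 (5.90), UGT76B1 (6.16), LHT1 (7.65) and PBS3 (7.29). SARD4 was also high on WT replicate 1 (2.61), the array on which SARD4 in WT overlapped the amiNAA10 and exon 1 arrays. On amiNAA10 replicate 2, LHT1 was high (7.56) and LKR/SDH low (5.13). AGD2 was low on WT replicate 4 (6.64), and NAA10 was low on amiNAA10 replicate 3 (2.64). No difference between the lines was called for the 4 pathway genes.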

How the results depend on the processing

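Centring on the brighter probe sets changed no call among the 4 genes in the 6 comparisons. The arrays already share 1 distribution, and the largest shift was -0.0018, on amiNAA10 replicate 2. This setting could therefore hardly change a call. With the trend and robust options ALD1 in amiNAA10 (3.38, adjusted p = 0.0807) and SARD4 in the mean of both HYPK lines (0.99, 0.0547) were no longer called, leaving 0 of 4 in each. The labels do not say that replicate numbers pair the samples. The replicate block ended the call for SARD4 in the HYPK lines (0.99, adjusted p = 0.0671, 0 of 4) and no other call among the 4 genes. Without the dimmest 30% of probe sets SARD4 (1.06, 0.0409) and UGT76B1 (3.01, 0.0488) were called in amiNAA10, giving 3 of 4, and ALD1 in the exon 1 line (3.41, 0.0406), giving 1; fewer probe sets were tested there, and UGT76B1, whose WT mean (1.74) lay under the bound, passed that filter only through arrays where it was high, so its call there supports nothing. Fits of only the genotypes compared called the same genes (SARD4 1.06, 0.0147; UGT76B1 3.01, 0.0221; 3 of 4; ALD1 3.41, 0.0251; 1 of 4) and gave 2477 against 3852 calls over all probe sets in the exon 2 line. Array weights called SARD4 (1.04, 0.0339) and UGT76B1 (2.84, 0.0499) in amiNAA10, giving 3, and ALD1 in the exon 1 line (3.55, 0.0232), giving 1. They ended the call for SARD4 in the HYPK lines (0.90, 0.0524; 0 of 4) and turned the SARD4 difference between the exon 1 and exon 2 lines from -0.02 to 0.20. Apart from the changes of spread and of the number tested that these settings make, the cause was not tested. In the main fit 30.7% of all probe sets were called in amiNAA10. The share under each of these settings is not given here, so 3 of 4 cannot be set against its background.

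Leaving out each array gave ranges in amiNAA10 of 2.59 to 3.93 for ALD1 and 0.84 to 1.34 for SARD4. FMO1 ranged there from 1.33 to 3.0 and UGT76B1 from 2.09 to 3.71. Of the 4 genes 0 to 3 were called, against 6974 to 8832 of 27826 probe sets. In the HYPK lines ALD1 ranged from 2.1 to 3.14 and SARD4 from 0.81 to 1.14 (0 to 2 called, against 4670 to 6532 probe sets). In the exon 1 line they ranged from 2.65 to 4.25 and from 0.74 to 1.25 (0 to 2 called, against 3787 to 6011). In the exon 2 line the calls over all probe sets ranged from 2097 to 3932, and in the HYPK lines against amiNAA10 from 1387 without amiNAA10 replicate 2 and 1496 without amiNAA10 replicate 3 to 3596, against 2850 with all arrays. Between the exon 1 and exon 2 lines SARD4 ranged from -0.27 to 0.35, positive without exon 1 replicate 1 (0.14), exon 1 replicate 4 (0.25) or exon 2 replicate 4. FMO1 ranged from -0.072, without exon 1 replicate 2, to 1.35. Between the HYPK lines and amiNAA10 the ranges were -1.29 to 0.13 for ALD1, -0.35 to 0.15 for SARD4 and -1.29 to 0.38 for FMO1, none of them called. SARD4 turned positive in 6 of 16 cases there, without amiNAA10 replicates 1 (0.03) or 2 (0.15), exon 1 replicates 1 (0.01) or 4 (0.07), or exon 2 replicates 1 (0.0005) or 3 (0.01).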
